A study of Mus musculus with 10 samples.

Results

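Organic anions, organic cations, bile acids, sulfate and dicarboxylates cross the membranes of kidney tubule cells on carriers of the Slc22a, Slco, Slc47a, Slc10a and Slc13a gene families. The genes described here are the 53 protein-coding genes with a symbol in one of these families followed by a number, out of 54532 genes in the deposited table. They were followed in obstructed mouse kidneys with and without dimethyl malonate (DMM), a malonate ester that inhibits succinate dehydrogenase, to see how treatment changed their transcripts. All 10 mice were male C57BL/6 (WT) animals whose left ureter was ligated (UUO, unilateral ureteral obstruction) when they were 8 weeks old. The ligated kidneys were taken 14 days after UUO. In the PBS group, 5 mice received PBS alone, and in the DMM group, 5 mice received DMM intraperitoneally at 40 mg/kg every other day. Bulk RNA-seq was done on whole kidney, with 1 library per mouse. Kidneys without obstruction were not analysed here, so levels are compared between the treatments only. Total counts per library were between 16457495 and 18078777 in the PBS group (median 17825223) and between 15722527 and 19475833 in the DMM group (median 16794390).

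Proximal tubule cells secrete organic anions and cations by taking them up from blood at the basolateral membrane and passing them to urine at the apical membrane. Organic anion transporters of the Slc22 family exchange their substrates for a dicarboxylate, chiefly α-ketoglutarate, and the sodium-coupled Slc13 carriers bring citrate, succinate and α-ketoglutarate back into the cell. Organic cations enter through other Slc22 carriers and leave through the proton exchangers of the Slc47 family, while apical Slc10a2 takes up bile acids.

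PBS replicate 3 and DMM replicate 1 crossed over between the groups. The mean log2 level of the tested members, relative to the mean of the PBS libraries, was 0.06, 0.10, 0.98, -0.91 and -0.24 in PBS replicates 1 to 5. In DMM replicates 1 to 5 it was -0.16, 0.70, 0.83, 0.40 and 1.11. PBS replicate 3 was thus among the high DMM libraries, DMM replicate 1 was among the PBS libraries, and PBS replicate 4 was the lowest of all. Both PBS replicate 3 and DMM replicate 1 also had a weight of 0 in the group means that the authors deposited, over 28001 genes, though the paper's methods state 5 replicates and no reason for these weights is given. Results are given over all 10 libraries and over the 8 libraries without this pair. Leaving out a pair that crosses over between the groups pulls the groups apart by construction. Of the 25 ways to leave out 1 library per group, this pair gave 15 called members, while the other 24 gave at most 1 (edgeR quasi-likelihood test, Benjamini-Hochberg). The words rose and fell therefore describe calls over the 8 libraries in what follows, and their p values are not a test of DMM that is free of this choice. DMM replicate 4 differed in another way. On the log2 scale, the median deviation of a gene from its mean over all libraries was 1.10 higher for genes of 6660 bp or longer than for genes of 2732 bp or shorter in this library, against -0.20 to -0.08 in the others. Results without it are given where they changed a call.

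Calls required an adjusted p under 0.05 (edgeR quasi-likelihood test of all genes, Benjamini-Hochberg) together with a fold change above 1.5. The log2 fold change of DMM against PBS is abbreviated log2FC. Low counts kept 13 members out of the test, none above 1.09 CPM (reads relative to library size, scaled by TMM) in any library, and left 40 of the 53. Over all 10 libraries edgeR called 0 members higher (0% of the 16505 genes tested) and 0 lower (0%). At an unadjusted p under 0.05 with the same fold, 5 members were higher (1.91% of all genes) and 0 were lower (4.11%). DESeq2 also called 0 members higher (0.073% of all genes) and 0 lower (0.201%), with 8 higher (1.97%) and 1 lower (2.99%) at its unadjusted p under 0.05. The levels of DMM lay wholly above those of PBS in 0 members (0.794% of all genes). The median log2FC of tested members was 0.50, against 0.02 for all genes.

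Without PBS replicate 3 and DMM replicate 1, edgeR called 15 of the 53 members higher (2.73% of 16550 genes) and 0 lower (3.56%). Groups did not overlap, with DMM above PBS, in 20 members (9.45% of all genes), and the median log2FC was 1.06 against 0.02. At an unadjusted p under 0.05, 23 members were higher (6.45% of all genes) and 0 lower (7.24%), and DESeq2 called 22 higher (3.71%) and 0 lower (4.51%), with 1 lower at its unadjusted p under 0.05 (4.91%). The count of 15 fell to 10 (1.67% of all genes) when libraries were scaled by their size alone. With the replicate number as a block in the model the count was 0 (0% of all genes). The count also moved with single libraries. It was 8 without PBS replicate 1 (1.34% of all genes), 8 without PBS replicate 2 (1.17%), 7 without PBS replicate 4 (0.952%), 4 without PBS replicate 5 (0.774%), 5 without DMM replicate 3 (1.1%) and 5 without DMM replicate 5 (0.995%). Without DMM replicate 4 it was 23 (6.71% of all genes), of which 14 were among the 15, and 1 member was then called lower (7.61%). In whole kidney, fewer cells of a type and less RNA per cell cannot be told apart.

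**Figure D1:**
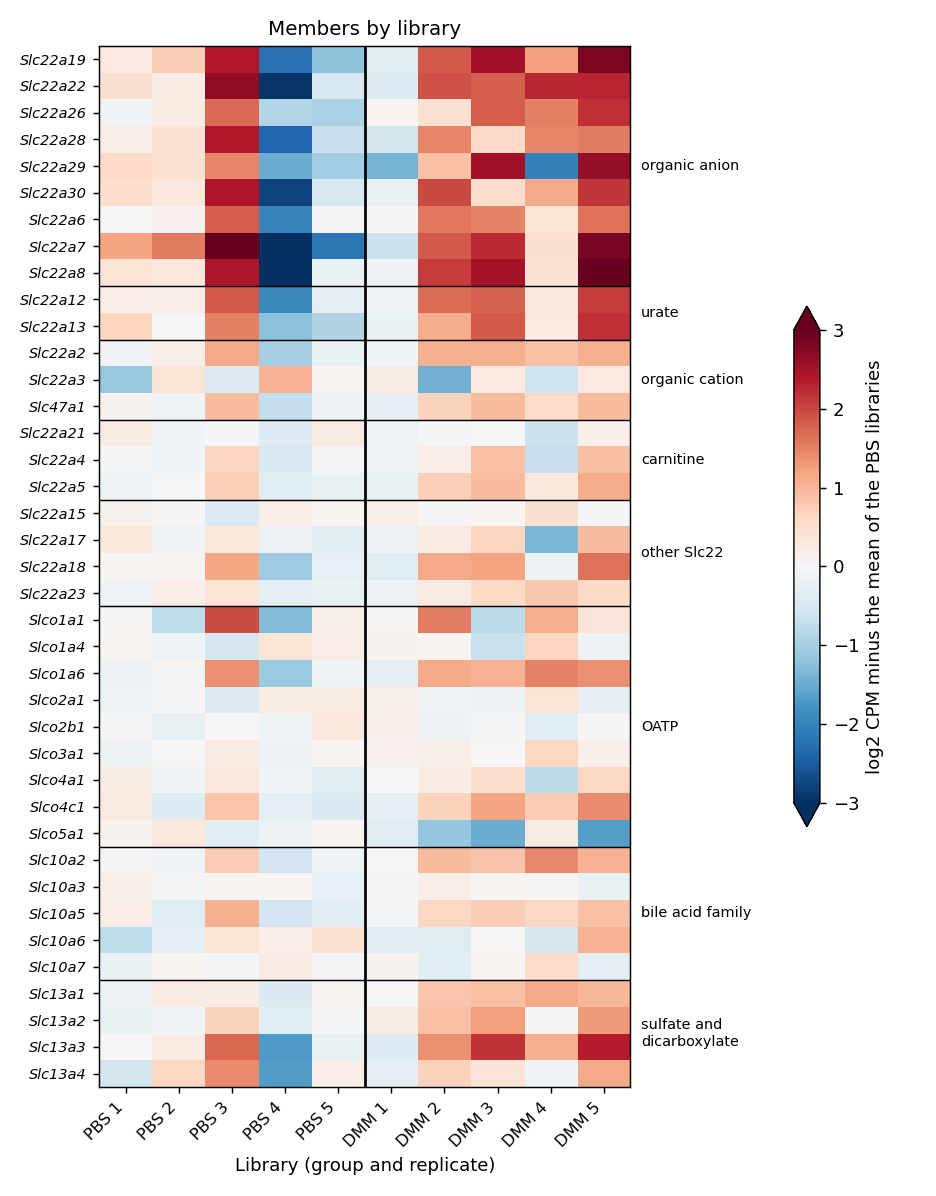
Log2 CPM of tested members in each library, minus the mean of the PBS libraries, grouped by role, with the color scale ending at 3 in both directions. PBS replicate 3 is red and PBS replicate 4 blue for most organic anion transporters, and DMM replicate 1 is close to the PBS mean.

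Organic anion transporters had the widest spread among the kidneys of a group, with an SD of 1.73 for their mean log2 level in the PBS group and 1.07 in the DMM group. Of 11 members with this role, 9 were tested, and over the 8 libraries Slc22a19, Slc22a22 and Slc22a26 rose, with 7 members whose groups did not overlap. The median log2FC of the tested members was 2.0 over the 8 libraries and 0.85 over all 10. Slc22a6 (chr19:8617996-8628299, plus strand, GRCm38), which encodes the basolateral uptake carrier OAT1, stood at 75.6, 81.3, 261, 18.6 and 76.6 CPM in PBS replicates 1 to 5 and at 72.9, 224, 208, 99.2 and 231 CPM in DMM replicates 1 to 5. Its highest level of all was in PBS replicate 3 and its lowest in PBS replicate 4, and the groups overlapped until PBS replicate 3 and DMM replicate 1 were set aside. The log2FC was 0.71 ± 0.57 (SE, n = 5 per group) over all 10 libraries and 1.6 ± 0.45 (SE, n = 4 per group) over the 8, where the adjusted p was 0.0668 (edgeR quasi-likelihood test, Benjamini-Hochberg). Without DMM replicate 4 it was called, at 1.81 with an adjusted p of 0.00854 (edgeR quasi-likelihood test, Benjamini-Hochberg).

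Slc22a8 encodes OAT3, the other basolateral carrier that takes up drugs and organic anions from blood, and had levels of 20.4, 19.2, 82.0, 1.81 and 13.2 CPM in PBS replicates 1 to 5 and 13.3, 65.4, 85.5, 20.6 and 137 CPM in DMM replicates 1 to 5. PBS replicate 4 was again the lowest library, DMM replicate 5 the highest, and DMM replicate 4 lay just above PBS replicate 1. Its log2FC was 1.24 ± 0.84 (SE) over all 10 libraries and 2.50 ± 0.72 (SE) over the 8, with an adjusted p of 0.0737 (edgeR quasi-likelihood test, Benjamini-Hochberg). It too was called without DMM replicate 4 (log2FC 2.82, edgeR quasi-likelihood test, Benjamini-Hochberg adjusted p = 0.00535). DESeq2 called both Slc22a6 and Slc22a8 over the 8 libraries, with Benjamini-Hochberg adjusted p values of 0.0033 and 0.023.

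The remaining organic anion transporters mostly lie in a gene cluster that also holds Slc22a6 and Slc22a8. On chromosome 19, between positions 7673061 and 8628299, this cluster has 8 members, of which 7 were tested and had log2FC values of 1.6 to 2.50 over the 8 libraries. Among them Slc22a19, a carrier of organic anions that include steroid sulfates, rose by a log2FC of 2.42 ± 0.62 (SE), with an adjusted p of 0.0497 (edgeR quasi-likelihood test, Benjamini-Hochberg). Slc22a26 rose by 2.0 ± 0.41 (SE) on the log2 scale, with an adjusted p of 0.0233 (edgeR quasi-likelihood test, Benjamini-Hochberg). Slc22a28, Slc22a29 and Slc22a30 had log2FC values of 1.6, 2.24 and 1.78 and were not called, though Slc22a30 was called without DMM replicate 4. Slc22a29 had 11, 9, 21, 1 and 2 counts in PBS replicates 1 to 5 and 1, 12, 46, 0 and 46 counts in DMM replicates 1 to 5, so its log2FC, with an SE of 1.05, rests on few reads, and its call once the DMM library without reads is left out is not read as a result. Over all 10 libraries the log2FC values of Slc22a19, Slc22a26, Slc22a28, Slc22a29 and Slc22a30 were 1.16, 1.07, 0.31, 1.33 and 0.53. Near-identical copies in this cluster may share reads, so the split between its members is uncertain. Outside the cluster, the prostaglandin carrier Slc22a22 rose by a log2FC of 2.32 ± 0.56 (SE) over the 8 libraries (edgeR quasi-likelihood test, Benjamini-Hochberg adjusted p = 0.0412) and had 0.85 over all 10. Slc22a7, which encodes OAT2, ranged from 0.319 to 61.0 CPM in the PBS group, a 191-fold spread, and from 3.95 to 45 CPM in the DMM group. Its log2FC was 0.21 over all 10 libraries and 1.62 over the 8, and it was not called in either. Slc22a20 and Slc22a27 were not tested.

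Both urate transporters of the Slc22 family were lowest in PBS replicate 4 and highest in DMM replicate 5. Slc22a12, which encodes the apical urate exchanger URAT1, was at 127, 128, 394, 28.8 and 89.9 CPM in PBS replicates 1 to 5 and at 101, 353, 377, 140 and 472 CPM in DMM replicates 1 to 5. DMM replicates 2, 3 and 5 and PBS replicate 3 formed a high group, DMM replicate 4 was only slightly above PBS replicates 1 and 2, and the groups overlapped over all 10 libraries. The log2FC was 0.91 ± 0.62 (SE) over all 10 and 1.84 ± 0.49 (SE) over the 8, with an adjusted p of 0.0575 (edgeR quasi-likelihood test, Benjamini-Hochberg). Without DMM replicate 4 it was 2.10, with an adjusted p of 0.00527 (edgeR quasi-likelihood test, Benjamini-Hochberg), and DESeq2 called it over the 8 libraries at a Benjamini-Hochberg adjusted p of 0.00123. Slc22a13, an apical carrier of urate and nicotinate, had a log2FC of 0.97 over all 10 libraries and 1.73 ± 0.50 (SE) over the 8, with an adjusted p of 0.0761 (edgeR quasi-likelihood test, Benjamini-Hochberg), and it too was called without DMM replicate 4. Slc22a12 overlaps Nrxn2 on the opposite strand, and Slc22a13 lies within Slc22a14 on the same strand. The strand setting of the counting was not given in the sources used here, so reads of such pairs may be mixed. Nrxn2 had a log2FC of 0.02 over the 8 libraries, and Slc22a14 was too low to test. Per gene length Slc22a12 was the most abundant member in the PBS group, with 67.7 ± 61.8 (SD, n = 5) FPKM (reads scaled by gene length and library size), against 128 ± 70.9 (SD, n = 5) FPKM in the DMM group. Slc13a1 followed in the PBS group with 46.5 ± 9.21 (SD, n = 5) FPKM and Slc47a1 had 40.6 ± 18.3 (SD, n = 5) FPKM. These 3 levels did not differ beyond their spread. The rank of Slc22a12 rested on PBS replicate 3, where it was at 174 FPKM. In PBS replicates 1, 2, 4 and 5 it was at 55.8, 56.5, 12.7 and 39.8 FPKM, against 40.7, 55.3, 33.7 and 48.6 FPKM for Slc13a1.

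Organic cation carriers rose on both sides of the tubule cell over the 8 libraries. Of 5 members 4 were tested and 3 were called higher, Slc22a2 and Slc47a1 among them, each with groups that did not overlap. Slc22a2 encodes OCT2, the main basolateral uptake route for cations in kidney, and was at 46.9, 56.3, 112, 25.4 and 43.9 CPM in PBS replicates 1 to 5 and at 47.3, 106, 106, 93.4 and 105 CPM in DMM replicates 1 to 5. DMM replicates 2 to 5 lay close together, near PBS replicate 3, while DMM replicate 1 lay with the other PBS libraries. The log2FC was 0.69 ± 0.36 (SE) over all 10 libraries and 1.25 ± 0.22 (SE) over the 8 (edgeR quasi-likelihood test, Benjamini-Hochberg adjusted p = 0.0115), and the call held without any one of these. Slc47a1, the apical exchanger MATE1 through which cations leave for urine, was at 138, 118, 243, 77.1 and 116 CPM in PBS replicates 1 to 5 and at 106, 208, 249, 189 and 249 CPM in DMM replicates 1 to 5. The same pair of libraries crossed over between the groups. Its log2FC was 0.53 ± 0.31 (SE) over all 10 libraries and 0.99 ± 0.19 (SE) over the 8, with an adjusted p of 0.0165 (edgeR quasi-likelihood test, Benjamini-Hochberg). That call was lost without PBS replicate 2, PBS replicate 5, DMM replicate 3 or DMM replicate 5, with adjusted p values of 0.0539, 0.0637, 0.056 and 0.057 (edgeR quasi-likelihood test, Benjamini-Hochberg). The low-affinity carrier Slc22a3 was at 0.265, 1.0, 0.506, 1.6 and 0.765 CPM in PBS replicates 1 to 5 and at 0.864, 0.189, 0.907, 0.423 and 0.912 CPM in DMM replicates 1 to 5. The groups overlapped at these low levels, and the log2FC was -0.32 ± 0.52 (SE) over all 10 libraries and -0.57 ± 0.61 (SE) over the 8. Slc47a2 was not tested.

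**Figure D2:**
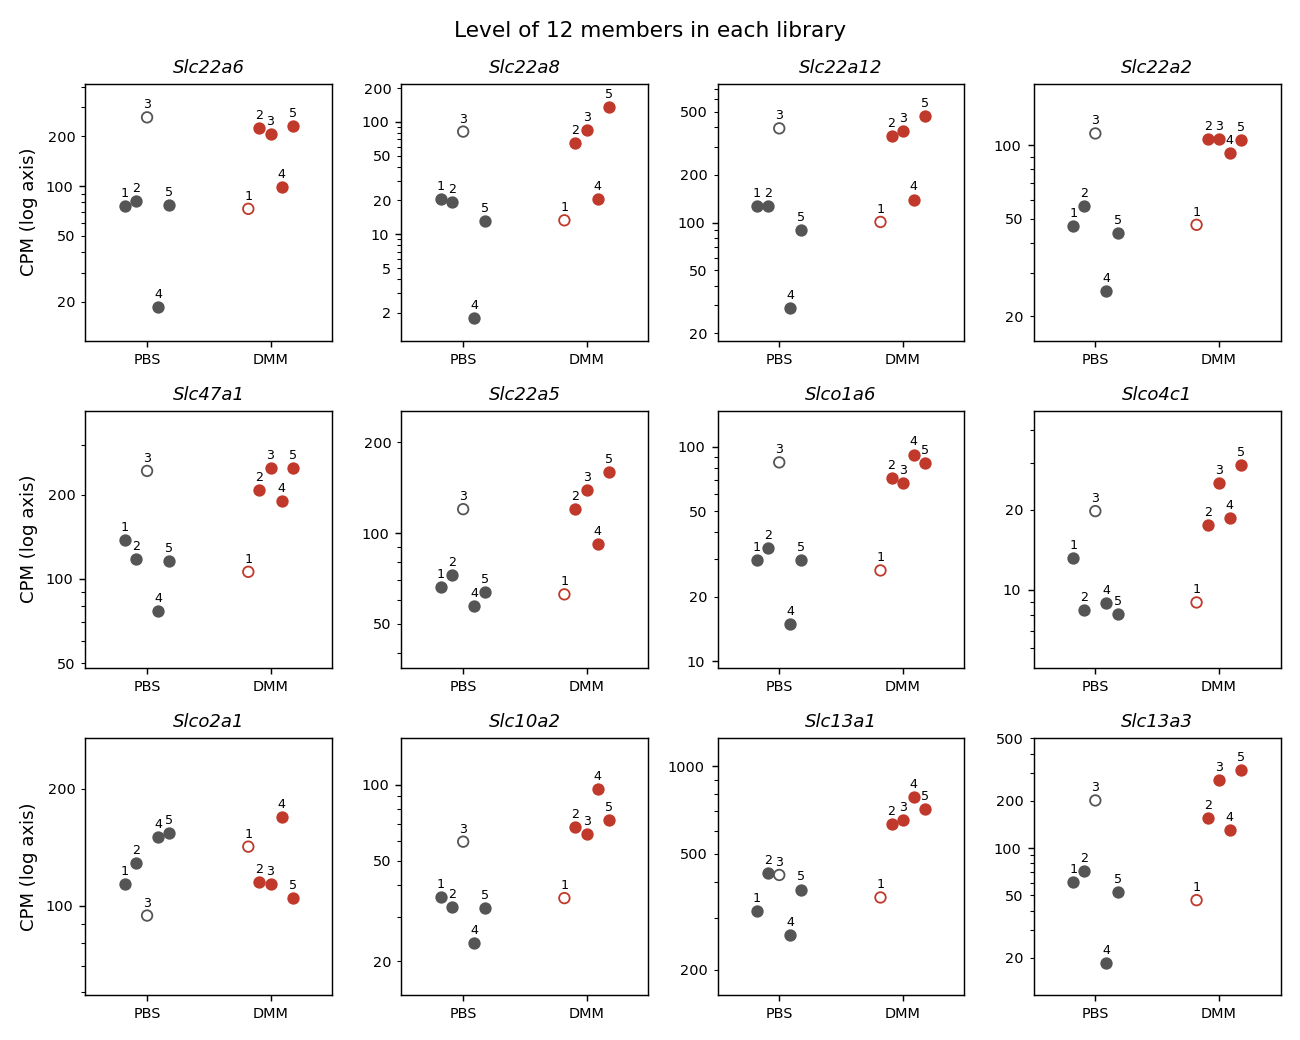
CPM on a log axis for 12 members in each library, with the replicate number beside each point and open circles for PBS replicate 3 and DMM replicate 1. For Slc22a6 the PBS points run from 18.6 to 261 CPM, while Slc13a1 stays between 262 and 431 CPM in the PBS group.

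The carnitine carrier rose over the 8 libraries, while its close relatives were not called. Slc22a5, which encodes the apical sodium-coupled carnitine transporter OCTN2, was at 66.4, 72.7, 120, 57.2 and 63.6 CPM in PBS replicates 1 to 5 and at 62.6, 120, 139, 92.1 and 159 CPM in DMM replicates 1 to 5. DMM replicates 2 to 5 lay above each PBS library other than PBS replicate 3, which was level with DMM replicate 2. Its log2FC was 0.59 ± 0.27 (SE) over all 10 libraries and 0.97 ± 0.17 (SE) over the 8 (edgeR quasi-likelihood test, Benjamini-Hochberg adjusted p = 0.013). The call was lost without PBS replicate 4 or PBS replicate 5, at adjusted p values of 0.0531 and 0.0585 (edgeR quasi-likelihood test, Benjamini-Hochberg). Slc22a4, the ergothioneine carrier OCTN1, was at 17.8, 17.3, 29.1, 13.4 and 17.9 CPM in PBS replicates 1 to 5 and at 16.9, 21.4, 33.8, 11.3 and 34.6 CPM in DMM replicates 1 to 5. DMM replicate 4 was the lowest library of all and the groups overlapped in both sets. Slc22a4 had log2FC values of 0.30 ± 0.31 (SE) over all 10 libraries and 0.61 ± 0.32 (SE) over the 8, and was called without DMM replicate 4, at 0.85 with an adjusted p of 0.0071 (edgeR quasi-likelihood test, Benjamini-Hochberg). Slc22a21, a mouse paralog of the carnitine carriers, was at 7.04, 5.59, 5.73, 4.52 and 7.12 CPM in PBS replicates 1 to 5 and at 5.37, 5.67, 5.95, 3.75 and 6.63 CPM in DMM replicates 1 to 5. All libraries were within a narrow range, and the log2FC was -0.13 ± 0.19 (SE) over all 10 libraries and -0.14 ± 0.24 (SE) over the 8. These 3 genes are neighbours on chromosome 11, between positions 53864542 and 54028090, and reads shared between them are possible. Slc22a16 had 0 counts in each library.

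Among the other Slc22 genes, Slc22a23, an orphan carrier, rose over the 8 libraries with a log2FC of 0.67 ± 0.15 (SE) and an adjusted p of 0.0346 (edgeR quasi-likelihood test, Benjamini-Hochberg). It was the 1 member called over the 8 libraries that was not called without DMM replicate 4, where its log2FC of 0.58 fell short of the fold threshold. Slc22a18 had a log2FC of 0.70 over all 10 libraries and 1.31 ± 0.37 (SE) over the 8, with an adjusted p of 0.0706 (edgeR quasi-likelihood test, Benjamini-Hochberg). Without DMM replicate 4, in which it was at 51.6 CPM against 125, 131 and 177 CPM in DMM replicates 2, 3 and 5, it was called at 1.56 (edgeR quasi-likelihood test, Benjamini-Hochberg adjusted p = 0.00212). Slc22a17, which encodes a receptor for lipocalin-2, and Slc22a15 had log2FC values of 0.39 and 0.04 over the 8 libraries, and Slc22a17 was called without DMM replicate 4, at 0.69. Slc22a14 was not tested.

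Among the organic anion transporting polypeptides, the Slco genes, a pair of kidney carriers rose over the 8 libraries and the others were not called. Of 14 members 9 were tested, Slco1a6 and Slco4c1 were called, with a median log2FC of 0.31 for the tested members, against 0.18 over all 10 libraries. Slco1a6, a carrier expressed in mouse kidney, was at 29.6, 33.7, 84.7, 14.9 and 29.7 CPM in PBS replicates 1 to 5 and at 26.5, 71.9, 67.9, 92.2 and 84.2 CPM in DMM replicates 1 to 5. DMM replicates 2 to 5 stood well above PBS replicates 1, 2, 4 and 5, with PBS replicate 3 among them. Its log2FC was 0.83 ± 0.44 (SE) over all 10 libraries and 1.55 ± 0.24 (SE) over the 8 (edgeR quasi-likelihood test, Benjamini-Hochberg adjusted p = 0.00808), and the call held without any one of the 8. Slco1a6 overlaps Gm20400 on the opposite strand, which had a log2FC of 0.96 over the 8 libraries, and it lies among 6 Slco1 genes on chromosome 6, between positions 141524368 and 142322981, so its count is uncertain to that extent. Slco4c1, a basolateral carrier of digoxin and thyroid hormone, was at 13.2, 8.36, 19.8, 8.94 and 8.12 CPM in PBS replicates 1 to 5 and at 8.95, 17.6, 25.2, 18.6 and 29.6 CPM in DMM replicates 1 to 5. Apart from PBS replicate 3 and DMM replicate 1, each DMM library was above each PBS library. The log2FC was 0.77 ± 0.34 (SE) over all 10 libraries and 1.23 ± 0.23 (SE) over the 8, with an adjusted p of 0.0163 (edgeR quasi-likelihood test, Benjamini-Hochberg). Leaving out PBS replicate 2, 4 or 5 or DMM replicate 3 or 5 ended the call, at adjusted p values of 0.0608, 0.0624, 0.0673, 0.0557 and 0.0522 (edgeR quasi-likelihood test, Benjamini-Hochberg). Slco4c1 overlaps Panct2 on the opposite strand, with a log2FC of 0.35 over the 8 libraries.

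Slco1a1, an apical carrier of steroid conjugates, was at 14.8, 8.95, 59.9, 6.17 and 17.1 CPM in PBS replicates 1 to 5 and at 15.6, 44.5, 8.73, 32.7 and 20.1 CPM in DMM replicates 1 to 5. DMM replicate 3 was low here, unlike for most members, and the groups overlapped in both sets. Its log2FC was 0.19 ± 0.61 (SE) over all 10 libraries, between -0.14 without DMM replicate 2 and 1.05 without PBS replicate 3, and 1.17 ± 0.49 (SE) over the 8, where it was not called. Slco2a1, the prostaglandin transporter, was at 114, 129, 94.4, 150 and 154 CPM in PBS replicates 1 to 5 and at 142, 115, 114, 169 and 105 CPM in DMM replicates 1 to 5. PBS replicate 3, high for the tubule carriers, was the lowest library for this gene. The log2FC was 0.01 ± 0.17 (SE) over all 10 libraries with TMM scaling, -0.09 with library size alone, and -0.12 ± 0.17 (SE) over the 8. Slco2b1, a carrier of steroid sulfates found in many cell types, was at 66.0, 55.5, 65.7, 58.5 and 80.0 CPM in PBS replicates 1 to 5 and at 72.0, 58.3, 66.3, 50.7 and 66.1 CPM in DMM replicates 1 to 5. The groups overlapped throughout, with log2FC values of -0.06 ± 0.13 (SE) over all 10 libraries and -0.11 ± 0.15 (SE) over the 8.

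Slco5a1, an orphan carrier, was at 6.62, 7.65, 4.95, 5.43 and 6.53 CPM in PBS replicates 1 to 5 and at 4.75, 2.71, 2.1, 7.49 and 1.88 CPM in DMM replicates 1 to 5. DMM replicate 4 was within the PBS range and the other DMM libraries were below it. Its log2FC was -0.72 ± 0.36 (SE) over all 10 libraries and -0.89 ± 0.43 (SE) over the 8, with an adjusted p of 0.273 (edgeR quasi-likelihood test, Benjamini-Hochberg). Without DMM replicate 4 it was called lower, at -1.55 with an adjusted p of 0.000998 (edgeR quasi-likelihood test, Benjamini-Hochberg). Slco5a1 is 13137 bp long and so is among the long genes that were high in that library. Slco3a1, Slco4a1 and Slco1a4 had log2FC values of 0.32, 0.31 and -0.10 over the 8 libraries and were not called. Slco1a5, Slco1b2 and Slco1c1 were not tested, and Slco6c1 and Slco6d1 had 0 counts in each library.

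In the bile acid transporter family Slc10a2 and Slc10a5 rose over the 8 libraries, among 7 members of which 5 were tested. Slc10a2 (chr8:5083219-5105351, minus strand), the apical sodium-dependent bile acid transporter, was at 35.9, 32.8, 59.4, 23.5 and 32.4 CPM in PBS replicates 1 to 5 and at 35.5, 67.7, 63.9, 95.6 and 72.1 CPM in DMM replicates 1 to 5. DMM replicates 2 to 5 were above all PBS libraries, PBS replicate 3 included, and DMM replicate 1 alone lay within the PBS range. The log2FC was 0.86 ± 0.28 (SE) over all 10 libraries, with an adjusted p of 0.385 (edgeR quasi-likelihood test, Benjamini-Hochberg), and between 0.70 and 1.10 when single libraries were left out. Over the 8 libraries it was 1.26 ± 0.18 (SE), with an adjusted p of 0.00507 (edgeR quasi-likelihood test, Benjamini-Hochberg), and the call held without any one of them. Slc10a5, an orphan of the family, rose by a log2FC of 0.96 ± 0.19 (SE) over the 8 libraries (edgeR quasi-likelihood test, Benjamini-Hochberg adjusted p = 0.0184) and had 0.47 over all 10. Slc10a3, Slc10a6 and Slc10a7 had log2FC values of 0.04, 0.21 and 0.02 over the 8 libraries. Slc10a1, the bile acid carrier of liver, and Slc10a4 were not tested.

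The sulfate and dicarboxylate carriers held the member with the smallest p over all 10 libraries. Of 5 members 4 were tested, and Slc13a1, Slc13a2 and Slc13a3 rose over the 8 libraries without overlap between the groups. Slc13a1 (chr6:24088283-24168092, minus strand), the apical sodium-sulfate cotransporter, was at 317, 431, 423, 262 and 377 CPM in PBS replicates 1 to 5 and at 354, 634, 655, 782 and 713 CPM in DMM replicates 1 to 5. PBS replicate 3 was below PBS replicate 2 here, DMM replicates 2 to 5 were above all PBS libraries, and DMM replicate 1 was within the PBS range. The log2FC was 0.79 ± 0.22 (SE) over all 10 libraries, with an adjusted p of 0.378 (edgeR quasi-likelihood test, Benjamini-Hochberg), a value that other genes shared and the smallest over all genes. Over the 8 libraries it was 1.0 ± 0.17 (SE), with an adjusted p of 0.0109 (edgeR quasi-likelihood test, Benjamini-Hochberg), and the call held without any one of them.

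Slc13a3 (chr2:165405028-165473230, minus strand) encodes NaDC3, the basolateral carrier of succinate and α-ketoglutarate, and was at 60.5, 71.0, 201, 18.6 and 52.2 CPM in PBS replicates 1 to 5 and at 46.6, 156, 272, 130 and 314 CPM in DMM replicates 1 to 5. PBS replicate 3 was high, PBS replicate 4 lowest of all and DMM replicate 1 below most PBS libraries. The log2FC was 1.19 ± 0.61 (SE) over all 10 libraries and 2.11 ± 0.43 (SE) over the 8, with an adjusted p of 0.0225 (edgeR quasi-likelihood test, Benjamini-Hochberg). Leaving out PBS replicate 1 or 5 or DMM replicate 3 or 5 ended the call, at adjusted p values of 0.0591, 0.0818, 0.0665 and 0.0656 (edgeR quasi-likelihood test, Benjamini-Hochberg). Slc13a2, which encodes the apical citrate and succinate carrier NaDC1, was at 8.68, 9.42, 16.3, 7.87 and 9.65 CPM in PBS replicates 1 to 5 and at 11.9, 18.7, 23.6, 10.2 and 24.4 CPM in DMM replicates 1 to 5. DMM replicates 1 and 4 were just above the PBS libraries other than PBS replicate 3. Its log2FC was 0.77 ± 0.28 (SE) over all 10 libraries and 1.11 ± 0.26 (SE) over the 8 (edgeR quasi-likelihood test, Benjamini-Hochberg adjusted p = 0.0372). That call rested on each of the 8 libraries other than DMM replicate 4, with adjusted p values of 0.1, 0.0998, 0.123 and 0.105 without PBS replicates 1, 2, 4 and 5 and of 0.0697, 0.107 and 0.107 without DMM replicates 2, 3 and 5 (edgeR quasi-likelihood test, Benjamini-Hochberg). When libraries were scaled by their size alone, the call of Slc13a2 was lost as well, at an adjusted p of 0.0744 (edgeR quasi-likelihood test, Benjamini-Hochberg). Slc13a2 overlaps Slc13a2os on the opposite strand, which had a log2FC of -0.17 over the 8 libraries. The sulfate carrier Slc13a4 had a log2FC of 0.12 over all 10 libraries and 0.76 over the 8 and was not called, and the citrate carrier Slc13a5 was not tested.

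By membrane side, the 6 basolateral members, such as Slc22a2, Slc22a6, Slc22a8, Slco4c1 and Slc13a3, had a median log2FC of 1.43 over the 8 libraries and 0.74 over all 10. The 10 members assigned to the apical side, of which 9 were tested, had medians of 1.11 and 0.77. Calls over the 8 libraries numbered 4 on the basolateral and 5 on the apical side, and the difference between the sides was not tested.

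**Figure D3:**
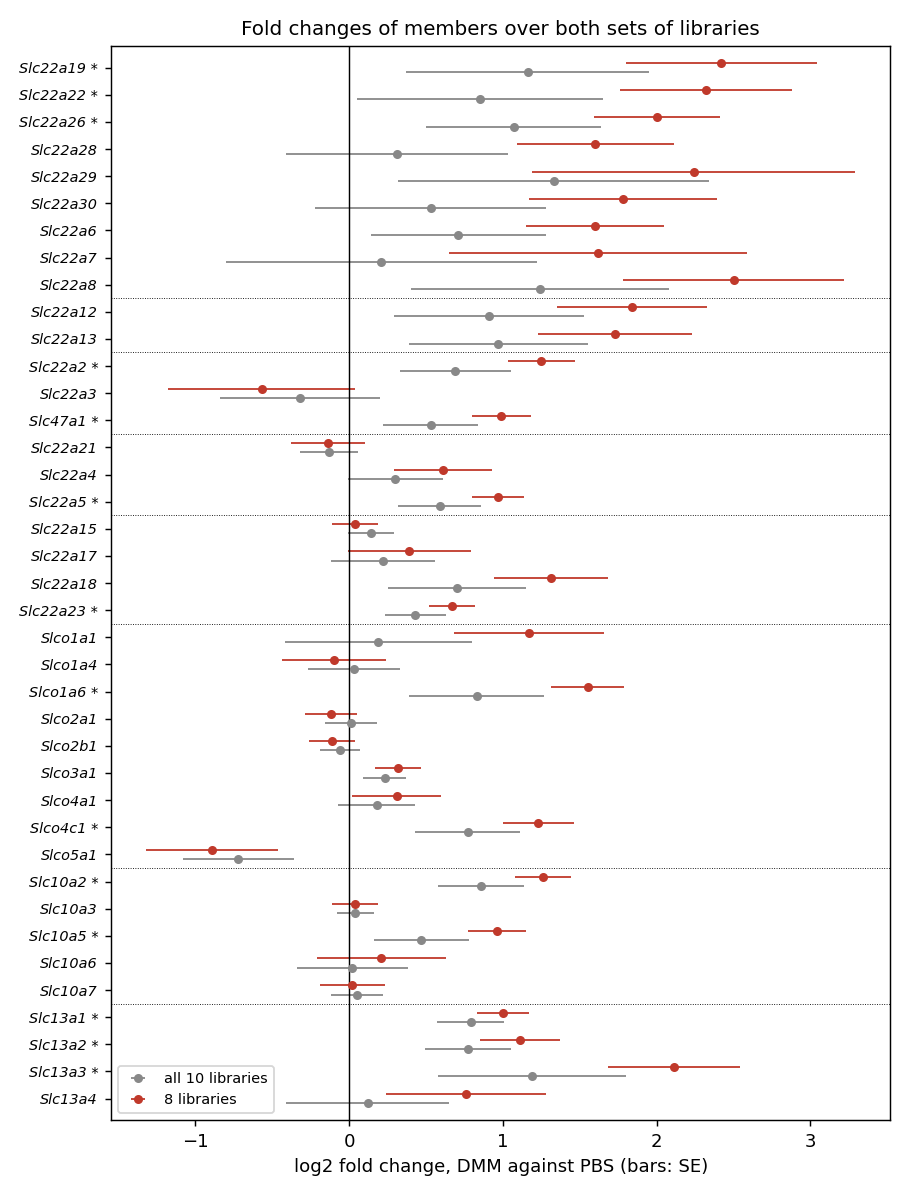
Log2FC values of DMM against PBS for tested members, with bars for the SE, over all 10 libraries (gray) and over the 8 libraries (red), and an asterisk for members called over the 8. Most tubule carriers lie further from 0 over the 8 libraries, as Slc22a8 does with 1.24 and 2.50, while Slco2b1 stays at -0.06 and -0.11.

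Other genes of tubular transport moved in the same libraries. Of 15 transport partners, 8 rose over the 8 libraries and the median log2FC was 0.92, against 0.73 over all 10. The apical efflux pump gene Abcg2 rose by 0.92 ± 0.12 (SE), the monocarboxylate carrier gene Slc5a8 by 1.31 ± 0.18 (SE) and the phosphate and urate carrier gene Slc17a1 by 1.42 ± 0.21 (SE) on the log2 scale, with adjusted p values of 0.00406, 0.00495 and 0.0062 (edgeR quasi-likelihood test, Benjamini-Hochberg). Among 16 genes of dicarboxylate and succinate handling, 3 rose, with a median of 0.54, against 0.32 over all 10. Among them were the sulfate and oxalate exchanger gene Slc26a1 and the succinate receptor gene Sucnr1, with log2FC values of 1.17 and 1.56. Of 14 transcription regulators of the transporters 13 were tested and 3 rose, with a median of 0.30, against 0.09 over all 10. Cebpa, Cebpb, Pparg and Ahr were below 0 over the 8 libraries, at -0.57, -0.53, -0.43 and -0.17, and were not called. Ppara had a log2FC of 1.73 ± 0.29 (SE), Hnf4a of 0.88 ± 0.17 (SE) and the bile acid receptor gene Nr1h4 of 0.94 ± 0.19 (SE), with adjusted p values of 0.0109, 0.0194 and 0.0204 (edgeR quasi-likelihood test, Benjamini-Hochberg). Without DMM replicate 4 the counts of risen genes were 11 for the partners, 9 for dicarboxylate handling and 4 for the regulators. Of all genes, 2.73% were called higher and 3.56% lower over the 8 libraries. Without DMM replicate 4 these shares were 6.71% and 7.61%, and they apply to the marker counts below as well.

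Markers of cell types also differed between libraries. The proximal tubule markers, 12 genes of which Kap was the most abundant except in DMM replicate 4, where Lrp2 was, summed to 4247, 4174, 11021, 1595 and 3112 CPM in PBS replicates 1 to 5 and to 3143, 8470, 6917, 6041 and 10363 CPM in DMM replicates 1 to 5. PBS replicate 3 had the highest and PBS replicate 4 the lowest sum, as for Slc22a6. The tested carriers summed to 1742, 1876, 3288, 1204 and 1700 CPM in PBS replicates 1 to 5 and to 1692, 3151, 3407, 2836 and 3915 CPM in DMM replicates 1 to 5. Of the 12 proximal tubule markers the endocytosis receptor genes Lrp2 and Cubn and the amino acid carrier gene Slc3a1 rose over the 8 libraries, with log2FC values of 1.97, 1.73 and 1.04. Without DMM replicate 4 there were 10 such markers. Lrp2, Cubn and Slc3a1 were then at 1.58, 1.48 and 1.04, while the other proximal tubule markers had larger log2FC values than over the 8. The median log2FC of the 12 markers was 1.31 over the 8 libraries and 0.56 over all 10, and none of these markers was at 0 in any library.

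Fibroblast and myofibroblast markers, 7 genes, mostly ran the other way, with sums of 7703, 11004, 5935, 15737 and 10475 CPM in PBS replicates 1 to 5 and 12815, 6151, 4061, 8728 and 4639 CPM in DMM replicates 1 to 5. Their highest sum was in PBS replicate 4, where the organic anion transporters were lowest, and Col1a2 and Postn fell over the 8 libraries, with log2FC values of -1.11 and -1.78, while Col1a1, Col3a1 and Fn1 were called lower as well without DMM replicate 4. Their median was -1.01 over the 8 libraries and -0.53 over all 10, and Acta2 and Pdgfrb were both at 0.07 over all 10. Col3a1 had the highest CPM of these 7 genes in each library. Macrophage markers, led by C1qb in the PBS libraries and DMM replicate 1 and by Csf1r in DMM replicates 2 to 5, summed to 1264, 1180, 1021, 1197 and 1367 CPM in PBS replicates 1 to 5 and to 1084, 800, 666, 662 and 688 CPM in DMM replicates 1 to 5, and 2 of these 6 genes fell over the 8 libraries, Cd68 and C1qb, with log2FC values of -0.97 and -1.35, joined by Adgre1 and C1qa without DMM replicate 4. Mrc1 had 0.08 over the 8 libraries and 0.13 over all 10, and was highest in DMM replicate 4. T cell markers, led by Cd4, summed to 38.8, 42.4, 39.2, 34.2 and 60.2 CPM in PBS replicates 1 to 5 and to 36.6, 27, 12.2, 16.6 and 16.8 CPM in DMM replicates 1 to 5, and Cd4 and Cd2 fell over the 8 libraries among 6 genes, with log2FC values of -1.19 and -1.84, joined by Cd3d and Cd3g without DMM replicate 4. Over all 10 libraries, edgeR called 0 macrophage and 0 T cell markers, while 4 and 5 passed the fold with an unadjusted p under 0.05, all of them lower (4.11% of all genes). The medians of these 2 lists were -0.66 and -1.02.

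Markers of other tubule segments followed the carriers in part. Loop of Henle markers, 3 genes led by Umod, summed to 2748, 2301, 3686, 1746 and 1480 CPM in PBS replicates 1 to 5 and to 2348, 3655, 4151, 1519 and 4618 CPM in DMM replicates 1 to 5. The sum in DMM replicate 4 was below most PBS libraries, as was Umod there, while Slc12a1 was at 504 CPM in it and above the PBS libraries other than PBS replicate 3. The median log2FC of these 3 genes was 0.84 over all 10 libraries and 1.46 over the 8, where Slc12a1 rose by 1.53. All 3 were called without DMM replicate 4. The 7 tested distal tubule and collecting duct markers out of 9, led by Slc12a3, summed to 440, 355, 752, 265 and 278 CPM in PBS replicates 1 to 5 and to 415, 628, 838, 463 and 727 CPM in DMM replicates 1 to 5. Of these 7, Slc4a1, Calb1 and Slc12a3 rose over the 8 libraries, and the median was 0.95 there and 0.52 over all 10. Aqp2, Aqp3 and Scnn1g were also called higher without DMM replicate 4, while Pvalb and Avpr2 were at 0 in some libraries and not tested. Injured tubule, podocyte and endothelium markers had median log2FC values of 0.08, -0.05 and -0.07 over the 8 libraries, where none was called. Over all 10 libraries these were 0.16, 0.09 and -0.05. The injured tubule marker Vcam1 was called lower without DMM replicate 4, at -0.9. The 5 tested hepatocyte markers out of 7, led by Fgb and Serpina1a, summed to 19.7, 26.4, 24.9, 19.4 and 17.9 CPM in PBS replicates 1 to 5 and to 15.7, 60.3, 73.2, 38.4 and 95.4 CPM in DMM replicates 1 to 5. Among them Alb, Fgb and Serpina1a rose over the 8 libraries, and all 5 were called without DMM replicate 4. Their median log2FC was 1.66 over the 8 libraries and 1.33 over all 10. Over all 10 libraries edgeR called 0 of them, while 4 were higher with the same fold at an unadjusted p under 0.05 (1.91% of all genes). Alb reached 1.52 CPM at most, and the defining markers Apoa1 and Ahsg were at 0 in several libraries and not tested. The part of these markers, and of the cells they stand for, in the levels of the carriers was not tested.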

How the data were processed

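RNA-seq was measured in 10 libraries, 1 per mouse, 5 per group. The counts that the authors deposited are raw reads per gene after alignment to mm10, for which the submitters' processing notes name HISAT2 2.0.5, and the counting tool, its annotation and its strand setting are not given in the sources used here. The FPKM values deposited by the authors divide counts by gene length and an effective library size, and were used only to compare levels between genes. The gene length deposited by the authors is in base pairs. The deposited group means are a signal in counts divided by size factors, and were used only to see which libraries entered them. The deposited table also holds the authors' own fold changes and p values, which were not used.

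Genes were kept by filterByExpr, scaled by TMM and tested with edgeR 4.0.16 (quasi-likelihood test, limma 3.58.1, R 4.3.3), with Benjamini-Hochberg adjustment over all tested genes. CPM values carry the TMM scaling of all 10 libraries, and list means were taken on the log2 scale after adding a prior count (2). The alternatives were DESeq2 1.42.0, other scalings, filters and thresholds, the replicate number as a block, and each library left out in turn. The edgeR steps were tested on simulated counts that had no crossing libraries, no length skew and no choice of which libraries to leave out. P values set the difference between the groups against the spread between mice. Over the 8 libraries this spread leaves out PBS replicate 3 and DMM replicate 1.

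The members and gene lists were chosen with earlier results of these data known. Values in every library are given for members with a textbook role in kidney and for the 4 members of smallest p in each direction over each set of libraries, and of the other lists up to 3 genes of smallest p are named first. Other genes named were chosen after their values were seen. Values of some genes are not reported here, though counts and medians include them. Unmapped columns of per-sample values number 0.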

Additional observations from a re-analysis of the deposited data

Results flagged for a closer look

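In 42 groups of 5 libraries, those of 20 members and of their mean, the highest or lowest library was set against its gap to the nearest other library, relative to the range of its group. PBS replicate 3 stood apart from the other PBS libraries for Slc22a6 (261 CPM), Slc22a8 (82 CPM), Slc22a12 (394 CPM), Slc22a5 (120 CPM), Slco1a1 (59.9 CPM), Slc13a2 (16.3 CPM), Slc13a3 (201 CPM) and Slco1a6 (84.7 CPM), each time as the highest. DMM replicate 1 stood apart as the lowest of its group for Slc22a2 (47.3 CPM). For the mean of the members, no library stood apart. Chance sets apart about 1 in 20 groups of normally distributed values. Levels of single members were taken as CPM without a log, so this rate need not hold for them. Groups that share libraries are also not independent of each other.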

How the results depend on the processing

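The 8 libraries over which most calls were made were set by the deposited group means, and their own alternatives, DMM replicate 4 and other pairs left out among them, were chosen after seeing the data. Low counts limited the test to 40 members, since those left out had at most 89 counts over all libraries.

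Over all 10 libraries, DESeq2 called 12 genes higher and 33 lower, against 0 and 0, and at an unadjusted p under 0.05 it had 8 members higher (1.97% of all genes) and 1 lower (2.99%), against 5 (1.91%) and 0 (4.11%). Library size alone gave 3 (1.22%) and 1 (4.93%), and no filter on low counts gave 1 lower (3.55%). The 8 libraries gave 452 genes higher and 590 lower, 15 called members (2.73% of all genes) and 23 members higher at an unadjusted p under 0.05 (6.45%). With single libraries left out, genes called higher ran from 0 to 50 and lower from 0 to 436, members called higher from 0 to 1 (the 1 without DMM replicate 1, with 0.298% of all genes), members higher at an unadjusted p under 0.05 from 2 to 22 (1.14% to 4.21% of all genes, with the 22 without PBS replicate 3) and lower from 0 to 1 (3.08% to 6.74%), and the median from 0.35 to 0.93.

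Over the 8 libraries, DESeq2 called 749 genes higher and 910 lower, with 1 member lower at an unadjusted p under 0.05 (4.91% of all genes), as with library size alone (9.41%, with 276 genes called higher) and with no filter (5.38%). Library size alone also lowered the members called higher to 10 (1.67% of all genes), against 15 (2.73%). With single libraries left out, genes called higher ran from 131 to 1129 and lower from 276 to 1281, members called higher from 4 to 23 (0.774% to 6.71% of all genes), members called lower from 0 to 1 (1.63% to 7.61%) and members lower at an unadjusted p under 0.05 from 0 to 1 (6.25% to 9.59%).

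With the replicate number as a replicate block, 8 members were higher (1.62% of all genes) and 1 lower (4.73%) at an unadjusted p under 0.05 over all 10 libraries, and over the 8 libraries 0 genes were called higher, 0 lower and 0 members. Deviations of samples with the same number correlated at -0.06, 0.08, 0.34, 0.12 and -0.22 for numbers 1 to 5, and only replicate 2 correlated best with its own number. The labels give only a number, and so few correlations cannot show whether samples with the same number share a batch. With PBS replicate 3 and DMM replicate 1 left out, their partners of the same number stood alone, so the block over the 8 libraries compared fewer complete pairs.

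Directions reversed for members near 0. Slco2a1 was at -0.09 with library size alone, -0.02 with no filter, -0.12 over the 8 libraries, and -0.11 to 0.09 with single libraries left out. With single libraries left out, Slco1a1 ran from -0.14 to 1.05, Slc22a3 from -0.55 to 0.07 and Slco2b1 from -0.11 to 0.04, and over the 8 libraries Slco2b1 ran from -0.18 to 0 and Slc22a21 from -0.26 to 0. Of the remaining members Slco1a4 went from 0.03 over all 10 libraries to -0.10 over the 8, and without DMM replicate 4 Slc10a7 went from 0.02 to -0.2 and Slc22a15 from 0.04 to -0.09. For the 20 members taken through each alternative, the other log2 fold changes kept their direction, with 316 values on the same side of the threshold and 11 newly past it over all 10 libraries, and 228 on the same side, 9 newly past it and 41 no longer past it over the 8. The cause was not tested.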
